A study of Homo sapiens with 6 samples.

Results

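The transcripts of 53 genes for building ribosomes were measured in PC-3 cells treated with cepharanthine. They encode RNA polymerase I with its factors, the proteins of small nucleolar ribonucleoproteins (snoRNPs), and the assembly factors of the small and large ribosomal subunits. The genes were chosen by symbol from a list of these factors, and all 53 of them were found among the 38843 genes of the deposited table. There were 7 polymerase I genes, 8 snoRNP genes, 19 small-subunit factors, 17 large-subunit factors and 2 abundant nucleolar proteins.

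PC-3 is an established human prostate cancer cell line, grown here in DMEM with 10% fetal bovine serum and labelled wild type. The treated group was given cepharanthine hydrochloride, a bisbenzylisoquinoline alkaloid from plants, at 5 µM and was collected on day 3, and the control group was collected on the same day, with no vehicle named in the labels. Each group held 3 messenger RNA libraries of 1 cell line, and the labels do not say whether each was its own culture. The p-values therefore cover the spread between these libraries alone, which may be technical. The comparison asked which transcripts of this machinery differ under the compound, in a study of its action against prostate cancer.

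Total counts were 53017816 to 68241156 in the cepharanthine libraries and 52774506 to 59241954 in the control libraries. Mitochondrially encoded transcripts took 4.86% to 6.61% of the counts in cepharanthine libraries and 8.75% to 12.2% in control libraries. Leaving these genes out changed no call among the 53 genes. Levels are given in CPM, which are read counts relative to the library total after that total was scaled by TMM factors. The 6 listed markers of PC-3 (KRT8, KRT18, KRT19, EPCAM, CD44 and VIM) summed to 2270 to 2509 CPM with cepharanthine and 1938 to 1973 CPM in controls. VIM, at 1162 ± 94.2 CPM with cepharanthine and 691 ± 51.7 CPM in controls, and KRT8 carried the higher sum, while the means of the other 4 were lower with cepharanthine. The luminal prostate marker TMPRSS2 averaged 42.6 ± 1.49 CPM with cepharanthine and 67.7 ± 5.64 CPM in controls (SD, n = 3 each). The 4 of 5 immune markers in the table summed to at most 2.80 CPM with cepharanthine and 3.68 CPM in controls. The 3 endothelial markers summed to 19.2 to 24.7 CPM with cepharanthine and 43.7 to 48.1 CPM in controls, and the 4 fibroblast markers to 53.7 to 63.8 CPM with cepharanthine and 80.7 to 102 CPM in controls. Both sums were nearly all PECAM1 and COL1A1, while the endothelial CDH5 and the fibroblast DCN were at or near 0. The part of these differences in the results below was not tested. Counts are relative to the library, so a change of total RNA per cell would not be seen.

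Ribosomes are made in the nucleolus, where RNA polymerase I copies ribosomal DNA into a long precursor that holds the 18S, 5.8S and 28S ribosomal RNAs. SnoRNPs guide its methylation and pseudouridylation, and large assemblies of factors fold and cut it into the pre-40S and pre-60S particles that leave the nucleus. Growing tumour cells are known for high rates of this process, and its genes are textbook targets of the transcription factor MYC. The messenger RNAs of the factors were measured here, not the ribosomal RNA that they process.

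With the main scaling of the counts, ribosome assembly transcripts were more often lower than higher in cepharanthine-treated cells. This balance did not hold under every scaling, as given below. Of the 53 genes, 18 fell, 3 rose and 32 were not called (quasi-likelihood test of edgeR, with p under 0.05 after Benjamini-Hochberg adjustment over all genes tested). POLR1A, the largest subunit of RNA polymerase I, and UTP20, a scaffold of the small subunit, had the lowest fold changes of the set, with log2 values (cepharanthine over control) of -0.94 ± 0.09 and -0.83 ± 0.08 (SE). The 3 that rose were NOP10, NPM1 and FBL.

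In the whole table, 27.9% of 21965 genes tested were called, 14.7% higher and 13.2% lower, and of the 53 genes 39.6% were called, 5.66% higher and 34.0% lower. All 53 were well expressed, and abundant genes were called more often. Among the 9950 tested genes at least as abundant as the least abundant of the 53, 45.5% were called, 25.9% higher and 19.5% lower. The set was therefore called no more often than these 9950 genes, and its calls lay more on the lower side. The 9950 genes share a lower limit of abundance and were not matched in level to the 53. The median log2 fold change was -0.13 over the 53 genes, against -0.02 over all genes tested and 0.05 over those abundant genes. In CPM all 3 cepharanthine libraries lay below all 3 control libraries for 23 of the 53 genes and above for 5, where 21.7% of all genes tested did so downward, 21.8% upward and 43.4% in either direction. Among the 9950 abundant genes these shares were 26.0% downward and 33.8% upward, or 59.8% in all. These shares describe the set and are not a test of it.

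**Figure D1:**
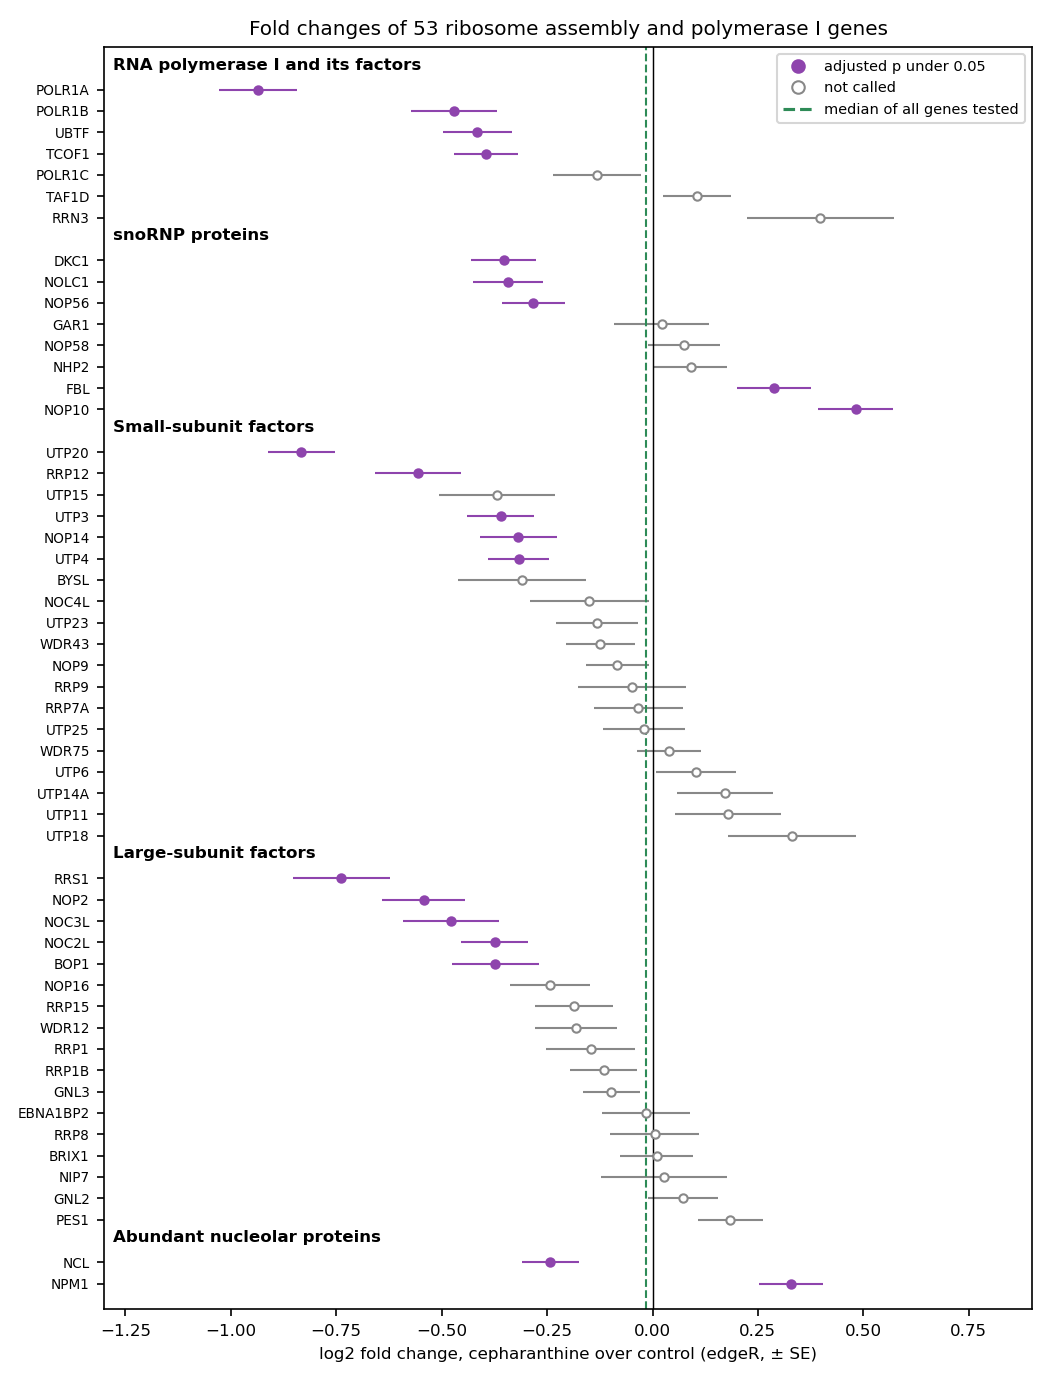
Log2 fold change (cepharanthine over control, edgeR, ± SE, horizontal axis) of each of the 53 genes, grouped by role from RNA polymerase I at the top to the abundant nucleolar proteins at the bottom. Filled points passed the adjusted threshold and the dashed line is the median of all genes tested (-0.02), with 18 filled points left of 0 and 3 right of it.

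All 21 called genes kept their direction in each of the 6 fits that left out a library, and 16 kept the call in every one of them. The other 5 each lost the call in more than 1 of these fits. FBL and NOP14 were lost without cepharanthine replicate 2, control replicate 1 or control replicate 3, with FBL also lost without cepharanthine replicate 1 and NOP14 also without cepharanthine replicate 3. BOP1 was lost without cepharanthine replicate 2 or 3 or control replicate 1 or 2. NCL was lost without cepharanthine replicate 1 or 3 or control replicate 3, and NOP56 without cepharanthine replicate 1 or control replicate 3. Control libraries are numbered as in the table's columns.

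Promoters are shown for UTP20, UTP4 and NOP10, which share the E-box letters CACGTG just before their start in RefSeq. UTP20 and UTP4 fell, whereas NOP10 rose. The E-box is bound by basic helix-loop-helix factors such as MYC with MAX and the MiT/TFE family. Each sequence is the 250 bases before the start of the gene in RefSeq (GRCh38.p14), read 5′ to 3′ on the gene's strand with every CACGTG in capitals. They lie at chr12:101279855-101280104 on the plus strand for UTP20, chr16:69132399-69132648 on the plus strand for UTP4 and chr15:34343137-34343386 on the minus strand for NOP10. UTP4 as counted here starts at 69131291, so its window lies inside the counted gene. The windows of UTP20 and NOP10 adjoin the counted genes.
UTP20: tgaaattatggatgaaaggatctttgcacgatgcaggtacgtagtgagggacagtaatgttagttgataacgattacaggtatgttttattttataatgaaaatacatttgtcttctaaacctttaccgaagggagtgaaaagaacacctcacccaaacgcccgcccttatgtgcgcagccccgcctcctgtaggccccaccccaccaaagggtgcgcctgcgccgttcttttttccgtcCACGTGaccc
UTP4: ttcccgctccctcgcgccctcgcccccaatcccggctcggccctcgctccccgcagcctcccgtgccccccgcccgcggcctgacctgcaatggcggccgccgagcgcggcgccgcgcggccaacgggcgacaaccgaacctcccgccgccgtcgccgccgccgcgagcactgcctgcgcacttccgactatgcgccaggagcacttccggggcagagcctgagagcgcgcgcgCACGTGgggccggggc
NOP10: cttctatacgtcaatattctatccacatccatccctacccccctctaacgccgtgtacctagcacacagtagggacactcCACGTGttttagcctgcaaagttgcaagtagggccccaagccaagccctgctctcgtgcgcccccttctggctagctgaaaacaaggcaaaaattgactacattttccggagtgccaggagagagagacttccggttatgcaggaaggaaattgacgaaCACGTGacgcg
The match began 10 bases before the start in UTP20, 16 bases in UTP4 and 11 bases in NOP10, which had another at 170 bases. CACGTG reads the same on both strands. Of the 53 genes 45 had a promoter in the table, and 6 of these (13.3%) held CACGTG, against 8.42% of 12784 promoters of genes tested and 6.46% of all 27305 promoters. The other 3 were UTP14A, UTP18 and EBNA1BP2, none of which was called. Among genes that fell, 2 of 13 promoters held it, and among the others 4 of 32. The letters CCGGAAG, an ETS-type motif searched on both strands, were in 15 of the 45 promoters (33.3%), against 14.2% of promoters of genes tested, in 5 of the 13 that fell and 10 of the 32 others. These are 2 of 5 motifs searched on both strands. The GC box GGGCGG was in 68.9% of the 45 promoters and 62.8% of promoters of genes tested, GCGCATGC in 4.44% of the 45 and 4.32% of those tested, and CCAAT in 28.9% of the 45 and 34.7% of those tested. A match is only a description of letters in this window.

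RNA polymerase I and its factors had 4 of 7 genes lower (57.1%, against 19.5% of the abundant genes) and 0 higher. At an unadjusted p under 0.05 edgeR had 1 higher (RRN3), while DESeq2 called 0 higher. POLR1A (ENSG00000068654, chromosome 2 from 86020216 to 86106155, minus strand, GRCh38) encodes the subunit that forms the catalytic core of the enzyme together with that of POLR1B. POLR1A had 38.7, 32.3 and 31.5 CPM in the cepharanthine libraries, against 67.5, 64.5 and 63.8 CPM in the control libraries, where CPM is scaled to the TMM-adjusted library size. The groups lay far apart, and the fitted level fell by 47.7% (edgeR adjusted p = 9.13e-05). POLR1B had 25.9, 24.8 and 25.4 CPM with cepharanthine, against 34.2, 39.8 and 31.3 CPM in controls, with a log2 fold change of -0.47 ± 0.10 (edgeR adjusted p = 0.00725). Its treated libraries were close to each other and all below the lowest control. The call did not hold in the authors' FPKM (limma adjusted p = 0.0562 on log2(FPKM + 1)) or in TPM (limma adjusted p = 0.34).

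The subunit encoded by POLR1C is shared with RNA polymerase III. Its 28.1, 31.2 and 33.5 CPM with cepharanthine overlapped the 33.0, 37.6 and 31.1 CPM of the controls, and the difference of -0.13 ± 0.10 was not called (edgeR adjusted p = 0.394). Reads of POLR1C may be shared with XPO5 and YIPF3, which overlap it on the opposite strand and had more counts, since the use of strand in the counting is not given in the sources used here. Within a library, counts of POLR1A over POLR1C were 1.38, 1.04 and 0.939 with cepharanthine, against 2.05, 1.72 and 2.05 in controls, a ratio that no library scaling can alter.

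Factors that bring the polymerase to ribosomal DNA differed among themselves. UBTF, the upstream binding factor that keeps ribosomal DNA open, had 92.9, 99.7 and 83.0 CPM with cepharanthine, against 121, 120 and 126 CPM in controls, and fell by 0.42 ± 0.08 on the log2 scale (edgeR adjusted p = 0.00438). TCOF1, which encodes treacle, a nucleolar partner of UBTF and the polymerase, had 76.8, 79.7 and 70.2 CPM with cepharanthine, against 95.8, 98.5 and 104 CPM in controls (-0.40 ± 0.08, edgeR adjusted p = 0.00382). Neither gene's groups overlapped.

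RRN3, the initiation factor TIF-IA that links the polymerase to growth signals, had 31.0, 31.7 and 44.4 CPM with cepharanthine, against 21.03, 32.2 and 28.1 CPM in controls. Cepharanthine replicate 3 was the highest and control replicate 1 the lowest, the groups overlapped, and 0.40 ± 0.18 was not called (edgeR adjusted p = 0.123). The 4 pseudogenes named after RRN3 took 9.05% of the counts of gene and pseudogenes together, and PDXDC1 overlaps RRN3 on the opposite strand, so its level is uncertain. TAF1D, a subunit of the promoter selectivity factor SL1 and a host of snoRNAs in its introns, was the most abundant gene of this class at 327 ± 11.5 CPM with cepharanthine and 304 ± 27.2 CPM in controls, a difference within the spread (edgeR adjusted p = 0.384).

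**Figure D2:**
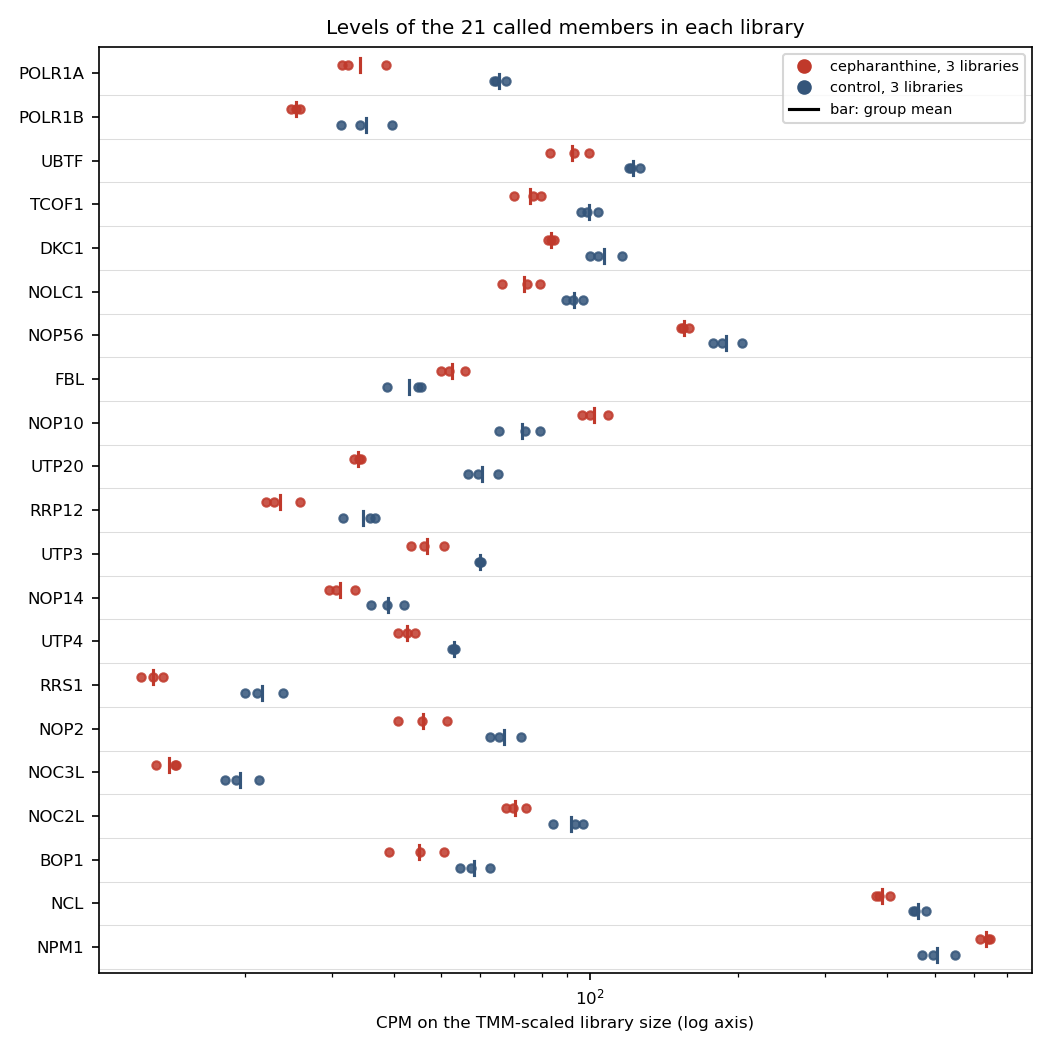
CPM on the TMM-scaled library size (log axis) of the 21 called genes in each library, with cepharanthine libraries above control libraries in each row and a bar at the group mean. In every row the 3 points of a group lie on 1 side of the 3 points of the other, with POLR1A, UTP20 and RRS1 set farthest apart downward and NOP10 upward. These genes were picked by the test on the same libraries, so their separation adds no support to the calls.

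SnoRNP proteins divided within each particle, with 3 of 8 lower (37.5%, against 19.5% of the abundant genes), 2 higher (25%, against 25.9%) and 3 not called. Box H/ACA particles, which turn uridine into pseudouridine, have the core DKC1, NOP10, NHP2 and GAR1. DKC1, the pseudouridine synthase dyskerin, had 82.4, 84.7 and 83.3 CPM with cepharanthine, against 99.9, 116 and 104 CPM in controls (-0.35 ± 0.08, edgeR adjusted p = 0.00708). Its smallest partner NOP10 (ENSG00000182117, chromosome 15 from 34341719 to 34343136, minus strand) moved the other way. NOP10 had 96.4, 109 and 99.9 CPM with cepharanthine, against 65.4, 79.3 and 73.7 CPM in controls, which is 39.7% higher in the fit (edgeR adjusted p = 0.00299). NHP2 (0.09 ± 0.09) and GAR1 (0.02 ± 0.11) were not called, and RMND5B overlaps NHP2 on the opposite strand with about as many counts. Counts of NOP10 over DKC1 were 1.17, 1.28 and 1.20 with cepharanthine, against 0.655, 0.684 and 0.708 in controls.

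Box C/D particles, which methylate ribose, gave a like division. FBL, the methyltransferase fibrillarin, had 51.8, 55.8 and 49.98 CPM with cepharanthine, against 38.8, 45.4 and 44.9 CPM in controls (0.29 ± 0.09, edgeR adjusted p = 0.0351). NOP56, one of the paired scaffold proteins of the particle, had 154, 158 and 153 CPM with cepharanthine, against 178, 203 and 186 CPM in controls (-0.28 ± 0.07, edgeR adjusted p = 0.0173). Both differences were small and both calls ended without some single libraries, as given above. NOP58, the other scaffold protein, had 41.2, 38.1 and 44.1 CPM with cepharanthine, against 37.2, 41.3 and 38.7 CPM in controls, and its groups overlapped. The ratio of FBL to NOP56 counts was 0.338 ± 0.0130 with cepharanthine and 0.228 ± 0.0123 in controls (SD, n = 3 each). NOLC1, the chaperone Nopp140 that carries snoRNPs into nucleoli and Cajal bodies, had 79.2, 74.4 and 66.4 CPM with cepharanthine, against 89.6, 96.8 and 92.6 CPM in controls (-0.34 ± 0.08, edgeR adjusted p = 0.0118).

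**Figure D3:**
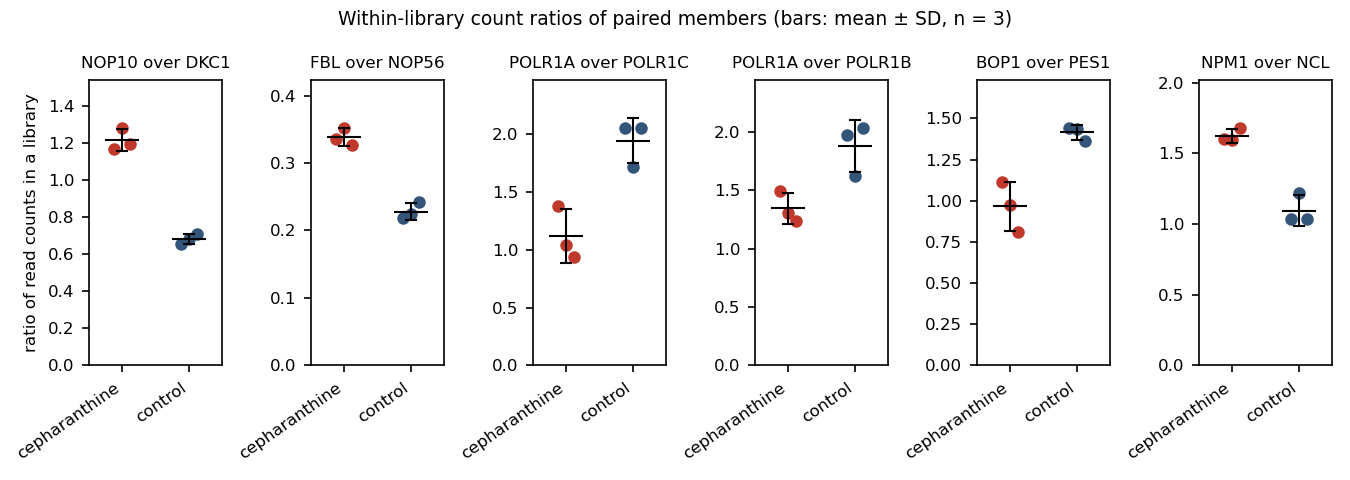
Ratio of read counts of paired genes within each library (linear axis from 0), cepharanthine left of control, with bars at the mean ± SD of 3 libraries. The groups do not overlap in any of the 6 pairs, for example NOP10 over DKC1 at 1.17 to 1.28 with cepharanthine and 0.655 to 0.708 in controls.

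The 6 pairs in the plot of ratios were chosen after their values were seen, so the ratios are given without a test. They compare counts within a library and are not relative molar amounts, since the genes differ in length.

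Small-subunit factors had 5 of 19 lower (26.3%, near the 19.5% of the abundant genes) and 0 higher. At an unadjusted p under 0.05 in edgeR, and by DESeq2, 0 were higher as well. These proteins mostly form the small-subunit processome, which with U3 snoRNA folds and cleaves the 18S part of the precursor. UTP20 (ENSG00000120800, chromosome 12 from 101280105 to 101386618, plus strand) had 34.0, 33.2 and 34.4 CPM with cepharanthine, against 65.1, 59.3 and 56.7 CPM in controls, and fell by 43.8% in the fit (edgeR adjusted p = 7.35e-05). The treated libraries differed from each other by far less than from any control. RRP12, needed for export of the pre-40S particle, had 22.0, 22.8 and 25.9 CPM with cepharanthine, against 31.6, 36.7 and 35.9 CPM in controls (-0.56 ± 0.10, edgeR adjusted p = 0.0028).

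The other 3 called factors fell less. UTP3, a processome component, had 50.7, 46.0 and 43.3 CPM with cepharanthine, against 59.8, 59.7 and 60.2 CPM in controls (-0.36 ± 0.08, edgeR adjusted p = 0.00771). UTP4, a subunit of the complex that joins the precursor first (UTP-A or t-UTP), had 44.3, 42.5 and 40.8 CPM with cepharanthine, against 53.1, 52.6 and 53.2 CPM in controls (-0.32 ± 0.07, edgeR adjusted p = 0.00909). Its neighbour SNTB2 overlaps UTP4 on the same strand with 186% of its counts and was itself lower (-0.48, edgeR adjusted p = 0.0082), and the part of shared reads in the UTP4 result was not tested. NOP14 had 33.4, 30.6 and 29.5 CPM with cepharanthine, against 41.9, 35.9 and 38.9 CPM in controls (-0.32 ± 0.09, edgeR adjusted p = 0.0265), and its antisense gene NOP14-AS1, with 21.2% of its counts, was also lower (-0.63, edgeR adjusted p = 0.0475).

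Another 14 small-subunit factors were not called, with log2 fold changes between -0.37 and 0.33. At the ends of that range stood UTP15, another t-UTP subunit, at -0.37 ± 0.14 with non-overlapping groups (edgeR adjusted p = 0.0731), and UTP18 at 0.33 ± 0.15. UTP18 was at 34.0, 35.6 and 47.8 CPM with cepharanthine, against 27.1, 37.0 and 29.2 CPM in controls, so its order rested on cepharanthine replicate 3 and control replicate 2, and it was called higher without that control (edgeR adjusted p = 0.048). WDR43 and WDR75, further t-UTP subunits, were at -0.12 ± 0.08 and 0.04 ± 0.08, and RRP9, the U3-specific protein, at -0.05 ± 0.13. A missed threshold does not show that these levels were alike.

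Large-subunit factors had 5 of 17 lower (29.4%, against 19.5% of the abundant genes) and 0 higher. At an unadjusted p under 0.05 in edgeR 1 was higher (PES1), and 0 were higher by DESeq2. RRS1, which in yeast brings the 5S ribonucleoprotein into the pre-60S particle, had 13.0, 13.7 and 12.3 CPM with cepharanthine, against 21.2, 23.9 and 20.0 CPM in controls (-0.74 ± 0.12, edgeR adjusted p = 0.00124). NOP2, the methyltransferase that makes a 5-methylcytosine in 28S ribosomal RNA, had 45.7, 51.3 and 40.9 CPM with cepharanthine, against 72.5, 65.5 and 62.7 CPM in controls (-0.54 ± 0.10, edgeR adjusted p = 0.00279). In both genes every treated library was below every control.

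NOC2L and NOC3L, relatives of yeast proteins that escort pre-60S particles from the nucleolus, fell together. NOC2L had 69.9, 74.4 and 67.6 CPM with cepharanthine, against 84.2, 96.8 and 93.5 CPM in controls (-0.37 ± 0.08, edgeR adjusted p = 0.00626). NOC3L had 14.5, 13.2 and 14.5 CPM with cepharanthine, against 19.1, 21.3 and 18.2 CPM in controls (-0.48 ± 0.11, edgeR adjusted p = 0.0115). NOC4L, the relative that works on the small subunit, was at -0.15 ± 0.14 and was not called.

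The PeBoW complex of PES1, BOP1 and WDR12, needed to process the spacer before 28S ribosomal RNA, was uneven. BOP1 had 50.7, 45.2 and 39.2 CPM with cepharanthine, against 57.5, 62.8 and 54.5 CPM in controls (-0.37 ± 0.10, edgeR adjusted p = 0.0231). PES1 had 45.6, 46.3 and 48.4 CPM with cepharanthine, against 39.8, 43.8 and 39.9 CPM in controls, above them in every library but not called (0.18 ± 0.08, edgeR adjusted p = 0.108). WDR12 had 24.4, 21.7 and 24.2 CPM with cepharanthine, against 24.8, 27.8 and 27.2 CPM in controls (-0.18 ± 0.10, edgeR adjusted p = 0.199). Counts of BOP1 over PES1 were 0.965 ± 0.152 with cepharanthine and 1.41 ± 0.0435 in controls. The 12 large-subunit factors not called ranged from -0.24 (NOP16, edgeR adjusted p = 0.0852) to the 0.18 of PES1, and the GTPases GNL2 and GNL3 (nucleostemin) were at 0.07 ± 0.08 and -0.10 ± 0.07.

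The abundant nucleolar proteins were called in opposite directions by edgeR. NPM1 (nucleophosmin, ENSG00000181163, chromosome 5 from 171387116 to 171411137), a histone and pre-60S chaperone, had 616, 645 and 640 CPM with cepharanthine, against 470, 549 and 495 CPM in controls, 25.6% higher in the fit (edgeR adjusted p = 0.0101). NCL (nucleolin), which binds the nascent precursor, had 385, 405 and 381 CPM with cepharanthine, against 455, 451 and 479 CPM in controls (-0.24 ± 0.07, edgeR adjusted p = 0.0229). Neither pair of groups overlapped. The NCL call ended without some single libraries, as given above. It also did not hold in the authors' FPKM (limma adjusted p = 0.0633 on log2(FPKM + 1)). In TPM the NCL difference was -0.0035 (limma adjusted p = 0.979). Adding the counts of 28 pseudogenes named after NPM1, 2.24% of the total with them, left its call in place.

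Levels between genes can be compared only per length. In the authors' FPKM (fragments scaled for gene length and library size), averaged over all 6 libraries, the 53 genes ranged from 1.67 for UTP15 to 151 for NOP10, with a median of 8.38. NOP10 averaged 178 ± 6.34 FPKM with cepharanthine and 123 ± 15.7 FPKM in controls, NPM1 147 ± 6.14 with cepharanthine and 113 ± 13.4 in controls, and NCL 50.8 ± 0.597 with cepharanthine and 57.9 ± 1.41 in controls (SD, n = 3 each). POLR1A was near the bottom at 2.24 ± 0.286 FPKM with cepharanthine and 4.13 ± 0.196 FPKM in controls. Summed over the 53 genes the level was 3523 ± 45.04 CPM with cepharanthine and 3730 ± 149 CPM in controls, on the TMM-scaled library size. As a share of all counts, without that scaling, the 53 genes held 0.357%, 0.363% and 0.361% with cepharanthine. In controls they held 0.346%, 0.392% and 0.356%, so these shares overlapped. The summed FPKM was 849 ± 21.2 with cepharanthine and 796 ± 70.1 in controls, and NOP10 and NPM1 held the largest parts of it. Without TAF1D, NPM1 and NCL, set aside after their levels were seen, the other 50 genes summed to 2164, 2210 and 2140 CPM with cepharanthine, against 2391, 2560 and 2429 CPM in controls.

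Exon length moved with the fold change, in these genes and in others. Over 15004 protein-coding genes the median log2 fold change was 0.19 for merged exons of up to 2000 bases, 0.08 for 2000 to 4000, 0.01 for 4000 to 8000 and -0.05 for longer ones (GENCODE 29). The 53 genes had medians of 0.02, -0.10, -0.13 and -0.40 in these classes, with 4, 15, 27 and 7 genes. In the longest class 4 of 7 fell (57.1%), where 21.9% of all protein-coding genes did, and POLR1A at 13519 bases and UTP20 at 10024 bases are in it. The shortest of the set, NOP10, has 554 bases, but RRS1, with 1706 bases, fell. Spearman's rho between length and fold change was -0.33 across the 53 genes and -0.11 across the 15004, as a description across genes that share libraries. With each library's trend on length removed, an alternative added after the data were seen, all 21 calls were kept, NOP16 was called lower as well, and POLR1A was at -0.86 and UTP20 at -0.79.

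**Figure D4:**
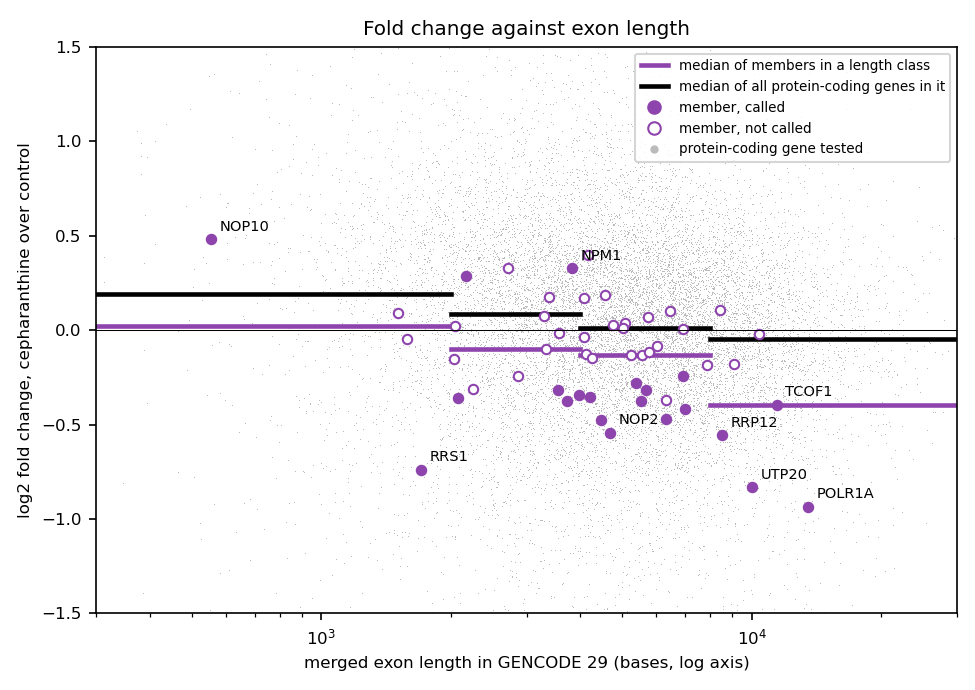
Log2 fold change (cepharanthine over control, linear axis) against merged exon length in bases (log axis) for the 53 genes (purple, filled where called) and the protein-coding genes tested (grey points, a few outside the axes not drawn), with horizontal lines at the median of each length class. The purple lines lie below the black lines in all 4 classes, at 0.02 and 0.19 in the shortest and -0.40 and -0.05 in the longest.

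Another 141 genes of the same pathway, from a list of further polymerase subunits, processome, pre-60S and RNA-cleaving factors, had 35 lower (24.8%) and 18 higher (12.8%). Of all genes tested 13.2% were lower and 14.7% higher, so the share that rose was no larger than in the whole table. Among the 9950 abundant genes 19.5% were lower and 25.9% higher, though some of the 141 genes were less abundant than these. The median log2 fold change of the 141 genes was -0.11. The 35 falls became 22 without cepharanthine replicate 1, 20 without cepharanthine replicate 2 and 23 without control replicate 1 or 3, and the 18 rises became 11 without cepharanthine replicate 2.

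Most calls were among pre-60S factors, with 19 of 48 lower (39.6%, against 19.5% of the abundant genes) and 10 higher (20.8%, against 25.9%). Those that fell with the smallest adjusted p were the giant ATPase MDN1 (-1.10 ± 0.08, edgeR adjusted p = 1.3e-05), URB1 (-0.91 ± 0.07), the MYB-binding nucleolar protein MYBBP1A (-0.92 ± 0.09) and LAS1L (-0.69 ± 0.08), the endonuclease partner that cuts the spacer between 5.8S and 28S ribosomal RNA. Those that rose with the smallest adjusted p were RSL24D1 (0.74 ± 0.11), EFL1 (0.49 ± 0.08), a GTPase that helps remove EIF6, EIF6 itself (0.57 ± 0.10) and the export adaptor NMD3 (0.40 ± 0.08), all with edgeR adjusted p between 0.00097 and 0.00596. MDN1 averaged 58.7 ± 2.18 CPM with cepharanthine and 126 ± 7.75 CPM in controls, and EIF6 averaged 93.8 ± 2.98 CPM with cepharanthine and 63.2 ± 9.19 CPM in controls (SD, n = 3 each).

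Among 44 further small-subunit factors 10 were lower (22.7%) and 4 higher (9.09%). These shares were 13.2% and 14.7% over all genes tested, and 19.5% and 25.9% over the abundant genes. NAT10, the acetyltransferase of 18S ribosomal RNA, fell by 0.51 ± 0.07 on the log2 scale, PDCD11 by 0.58 ± 0.09 and NOL6 by 0.63 ± 0.11 (edgeR adjusted p between 0.000542 and 0.00256). BUD23, the methyltransferase of 18S ribosomal RNA, was at 138 ± 5.51 CPM with cepharanthine and 185 ± 16.3 CPM in controls (-0.42 ± 0.08), while its activating partner TRMT112 was at 78.1 ± 12.2 CPM with cepharanthine and 42.4 ± 9.13 CPM in controls (0.88 ± 0.16, edgeR adjusted p = 0.00239). NOL7, a processome component, had the smallest adjusted p of those that rose, at 40.1 ± 2.95 CPM with cepharanthine and 24.9 ± 1.11 CPM in controls (0.68 ± 0.09, edgeR adjusted p = 0.000423). NOB1, the endonuclease that makes the end of 18S ribosomal RNA, and FCF1, a nuclease of the processome, rose by 0.28 ± 0.09 and 0.33 ± 0.11 on the log2 scale (edgeR adjusted p = 0.0326 and 0.0476). Of 15 further polymerase I genes 3 rose (20%) and 2 fell (13.3%). Of all genes tested 14.7% were higher and 13.2% lower, and of the abundant genes 25.9% were higher and 19.5% lower. POLR1D, the partner of POLR1C, rose by 0.47 ± 0.07 and POLR2K, a small subunit of all 3 polymerases, by 0.32 ± 0.07, while TAF1C of the SL1 complex fell by 0.59 ± 0.08 (edgeR adjusted p between 0.000418 and 0.0103). The shared polymerase subunit POLR2F rose by 0.47 ± 0.14 and POLR2H fell by 0.23 ± 0.07 (edgeR adjusted p = 0.0347 and 0.0432), with POLR2H at 0.0088 in TPM. Of 11 further snoRNP genes ZNHIT3 rose (0.59 ± 0.13) and RUVBL1 fell (-0.39 ± 0.10). That is 9.09% in each direction, against 14.7% higher and 13.2% lower of all genes tested. Of 23 RNA-cleaving and exosome genes 3 fell (13.0%, against 13.2% of all genes tested and 19.5% of the abundant genes). They were POP5 of RNase P and MRP (-0.54 ± 0.12) and the exosome subunits EXOSC2 (-0.60 ± 0.14) and EXOSC6 (-0.47 ± 0.13). The others were not called (edgeR).

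The direction of the set depended on the scaling. When FPKM were rescaled to the same total in every library (TPM), the median of all genes moved to 0.21 and that of the 53 genes to 0.10. In that fit 3 of the 53 genes were called lower and 5 higher, while the whole table had 1088 genes lower and 4840 higher. All 21 genes called by edgeR still had the same sign, and POLR1A (-0.65), UTP20 (-0.56), RRS1 (-0.48), NOP10 (0.72), NPM1 (0.57) and FBL (0.52) were still called (limma). Relative to the median of all genes the 53 lay at -0.11 in TPM and -0.12 in the edgeR fit. With the library medians set equal in TPM, an alternative added after the data were seen, 18 were lower and 3 higher, the same 21 genes as in edgeR.

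**Figure D5:**
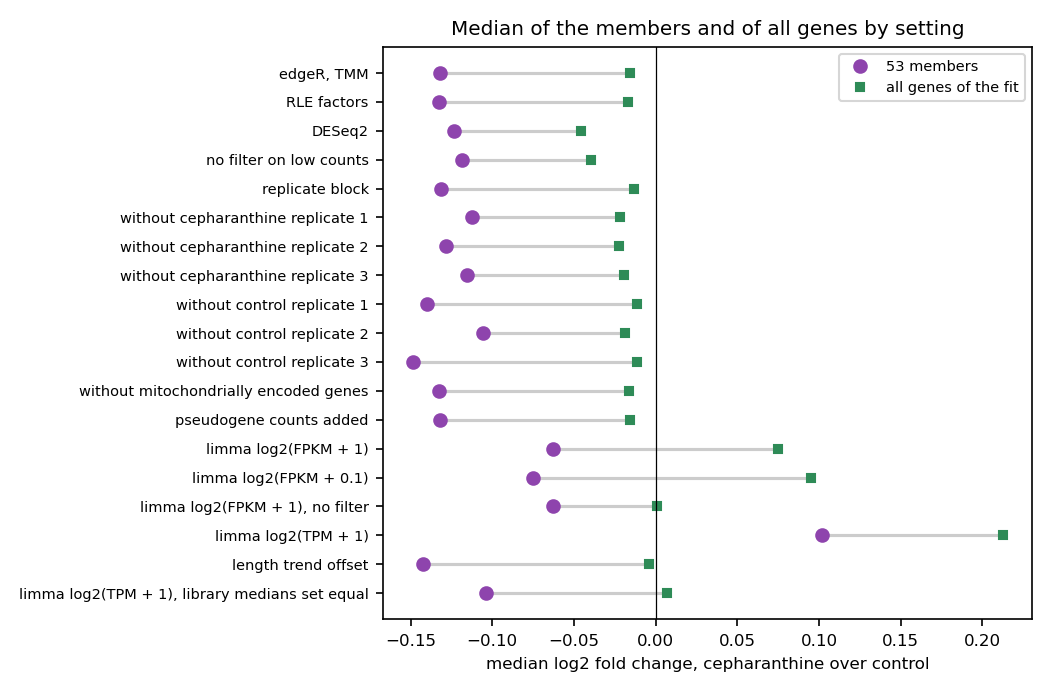
Median log2 fold change (cepharanthine over control) of the 53 genes (purple circles) and of all genes in the same fit (green squares) for the main edgeR fit at the top and each alternative below it. The circle lies left of the square in every row, while both lie right of 0 only for log2(TPM + 1), at 0.10 and 0.21.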

How the data were processed

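Messenger RNA libraries (SMARTER kit, per the labels' protocols) of 3 cepharanthine and 3 control samples of PC-3 were analysed from a table in which the authors deposited whole-number counts and FPKM for each gene. The counts and FPKM are given per gene with no normalization of the counts, per the file headers and the values. The submitters' processing notes name the builds hg38, GRCm38 and mm10 with no role. Gene coordinates in the table matched human GRCh38 annotation (96.8% of IDs in GENCODE 29). The sources used here do not name the aligner, the counting program or its use of strand. Control columns carry another prefix than the control labels and were matched to them by being without the compound and by their number, which only the replicate block and the names of libraries left out use.

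The test was edgeR 4.0.16 (quasi-likelihood, TMM, filterByExpr) on the counts of all 6 libraries in R 4.3.3, over 21965 genes, with Benjamini-Hochberg adjustment and a threshold of 0.05. SE was the log2 fold change over the square root of F. A count of 3 corresponds to 0.0426 to 0.0593 CPM on the TMM-scaled library size, a limit of counting error only. Alternatives were DESeq2 1.42.0, other scalings and filters, limma 3.58.1 on log2(FPKM + 1) and log2(TPM + 1), the replicate block and each library left out. The scripts were tested on simulated data. TPM were computed from the deposited FPKM.

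Of the 53 genes 32 overlap another gene, and 15 of these have a partner with at least 10% of their counts, including 2 that were called, UTP4 and NOP14. The members, the lists of other genes and the tests were chosen with earlier results of these data known. All 53 members are covered, and of the other genes those with the smallest adjusted p in each class and direction are named, up to 4. Promoters came from RefSeq and 8 of the genes had none in it.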

Additional observations from a re-analysis of the deposited data

How the results depend on the processing

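All 21 called genes kept their direction under each of the 18 alternatives. Their calls all held with RLE factors, DESeq2, no mitochondrial genes, added pseudogene counts and the length trend offset, and 20 held without the filter on low counts. Leaving out 1 library gave 15 to 17 of the 53 genes lower and 2 to 4 higher, a median of -0.15 to -0.11, 20 to 26 of the 141 other genes lower and 11 to 18 higher, and 2120 to 2607 genes lower and 2392 to 3094 higher in the whole table. With log2(FPKM + 1), log2(FPKM + 0.1), log2(FPKM + 1) without a filter and log2(TPM + 1), the median of the 53 genes was -0.063, -0.075, -0.063 and 0.10, the other genes called lower were 22, 22, 10 and 6, and the whole-table genes called lower were 1897, 1883, 1333 and 1088. In both filtered FPKM fits 13 of the 53 genes were lower, without POLR1B, NOP56, NOP14, BOP1 and NCL. In the unfiltered FPKM and the TPM fits, 6 and 3 of the 53 genes were lower and 1 and 5 higher, and 2077 and 4840 genes of the whole table were higher. In TPM 34 of the other genes were higher and POLR2H reversed, at 0.0088 against -0.23. The cause of these differences was not tested. Under the replicate block 17 of the 53 genes were lower and 2 higher, with FBL and NCL no longer called, 22 of the other genes were lower, and the whole table had 2294 lower and 2544 higher. Deviations from the group mean correlated at 0.0036, -0.0069 and -0.07 between samples with the same number. Between samples with different numbers the correlations ran from -0.0659 to 0.0747. Deviations cancel within each group, so these values cannot show whether samples with the same number shared a culture or batch.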

Other observations

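Small nucleolar RNA genes, whose products the snoRNP proteins bind, were poorly covered by these messenger RNA libraries. The 459 snoRNA genes of the table summed to 1732, 1523 and 3274 counts in the cepharanthine libraries, against 1585, 1971 and 1531 counts in the control libraries. SNORD3A, a gene of the U3 snoRNA that works with the small-subunit processome, had 20, 38 and 1251 counts with cepharanthine, against 28, 44 and 25 counts in controls, so that cepharanthine replicate 3 stood alone. Without SNORD3A the sums were 1712, 1485 and 2023 counts with cepharanthine and 1557, 1927 and 1506 counts in controls, and the groups overlapped.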
